A study of Mus musculus with 6 samples.

Results

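The clustered protocadherins were 58 of the 43309 genes in the count table of this study, namely every gene whose symbol starts with Pcdha, Pcdhb or Pcdhg followed by a number or by a letter and a number. The rule used names alone and no measured value, but it was set with earlier results of these data known. Of these, 14 belong to the alpha cluster, 22 to the beta cluster and 22 to the gamma cluster. The RNA came from mouse embryonic stem cells (mESCs), pluripotent cells grown as lines, of the J1 (129SV) strain, kept in serum medium on gelatin without feeder cells. The control group was 3 lines labelled Zbtb24 wild-type (2lox/+), which carry 1 allele of Zbtb24 flanked by loxP sites beside an intact allele. The other group was 3 lines labelled Zbtb24 knockout (1lox/1lox), in which both alleles are recombined. Each line is a clone and gave 1 poly(A)-selected, stranded library, so lines and libraries cannot be told apart. The libraries held 25042261 to 28838924 counted fragments.

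Protocadherins are cadherin-like adhesion proteins of the cell surface. The clustered ones are best known from neurons, where single promoters are chosen in each cell and the combination of proteins on the membrane gives the neuron an identity that its own branches recognise. Promoter choice depends on DNA methylation, on the zinc finger protein CTCF and on cohesin, which joins promoters with distant enhancers. Each alpha and gamma gene joins its own large first exon, which encodes the extracellular part, to constant exons shared by its cluster, whereas each beta gene stands alone. In the alpha and gamma clusters the last genes, called C-type, differ in sequence and control from the rest. Zbtb24 encodes a zinc finger protein mutated in a form of ICF syndrome, an inherited immunodeficiency with unstable centromeres.

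For Zbtb24, the targeted gene, the control libraries gave 510, 512 and 489 fragments and those labelled knockout 888, 925 and 1039. It was therefore higher, not lower, in the second group, with a log2 fold change of 0.99 (SE 0.05, adjusted p = 4.47e-23, by the quasi-likelihood test of edgeR, Benjamini-Hochberg adjustment over all genes tested, as for every adjusted p given here). A count of the whole gene does not show which exons remain. The group is called labelled knockout throughout, since the count of Zbtb24 went against the label.

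The 3 clusters lie next to each other on the plus strand of chromosome 18 (mm10). The alpha genes span positions 36930184 to 37187661, the beta genes 37264938 to 37524479 and the gamma genes 37661793 to 37841873. Fragments that touched exons of more than 1 gene had been discarded by the authors, which removed every fragment on a constant exon. What was left to count was mainly the variable first exon. By the GENCODE M21 annotation, 8.56% to 61.1% of the exonic bases of an alpha gene and 33.2% to 68.5% of those of a gamma gene were free of exons of other genes in the table, whereas in each beta gene at least 90.3% were. The lowest value was that of Pcdha4, whose first exon is shared with an annotated read-through gene. These unshared bases are called countable exon here. Fragments with several genomic locations had also been discarded. In the alpha cluster, 8.05% of all windows of 76 bases (the read length) inside countable exon occurred base for base in a transcript of another gene, with the highest share in Pcdha6 at 19.7%. In the beta cluster the share was 1.17% and in the gamma cluster 2.14%. Counts of alpha and gamma genes therefore measure unshared exon only, which leaves out most of the variable exon in Pcdha4 and the repeated windows where they occur.

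The alpha cluster was close to undetected in both groups. Its 14 genes together held 9, 3 and 8 fragments in the control libraries, against 14, 7 and 8 in the knockout-labelled ones. Of these 49 fragments, 35 belonged to the C-type gene Pcdhac2, with 7, 2 and 5 in the control libraries, against 9, 7 and 5 in the knockout-labelled ones. The other C-type gene, Pcdhac1, had 0 fragments in each control library and 1, 0 and 1 in the others. Pcdha1, Pcdha2, Pcdha5, Pcdha8 and Pcdha9 had 0 fragments in all 6 libraries. A count of 0 allows a level of up to 3 fragments, which is 0.104 to 0.12 cpm (the count divided by the library total, on the usual scale) in these libraries, and this limit covers counting error only. The other 8 genes apart from Pcdhac2 held between 1 and 4 fragments in all libraries together. Pcdha12 had the most of them, with 1, 0 and 0 in the control libraries, against 2, 0 and 1 in the knockout-labelled ones. Pcdha3, Pcdha4 and Pcdha7 had at most 1 fragment in any library. After TMM normalization the cluster summed to 0.24 cpm ± 0.114 in the control group and 0.368 cpm ± 0.146 in the group labelled knockout (SD, n = 3 libraries each). The libraries of both groups overlapped, and no difference was detectable at this depth.

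The annotation gives the symbol Pcdha11 to 2 identifiers in the alpha cluster. ENSMUSG00000007440 starts where RefSeq places Pcdha10 and had 1 fragment, in control line 2. ENSMUSG00000102206 had 1 fragment, in control line 3. Neither count separates the groups.

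The beta cluster was at the same low level, although nearly all of its exonic bases could be counted. Its 22 genes held 25, 13 and 12 fragments in the control libraries, against 11, 23 and 20 in the knockout-labelled ones, equal to 0.599 cpm ± 0.251 and 0.688 cpm ± 0.257 (SD, n = 3 each). The groups overlapped. Per kb of countable exon this was 0.00653 cpm ± 0.00273 in the control group, against 0.00689 cpm ± 0.00328 for the alpha cluster, a difference well within the spread between libraries.

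Within the beta cluster, Pcdhb22 held the most fragments, with 5, 3 and 3 in the control libraries, against 5, 5 and 5 in the knockout-labelled ones. Pcdhb14 had 3, 2 and 3 against 1, 8 and 4. Pcdhb1, the first gene of the cluster, had 3, 1 and 1 against 2, 2 and 3. For each of these 3 genes the libraries of the groups overlapped or shared a value. Pcdhb2 had 0, 2 and 2 fragments in the control libraries, against 1, 2 and 3 in the knockout-labelled ones. Pcdhb20 had 5, 1 and 1 fragments in the control libraries, against 0 in each library labelled knockout. Pcdhb18 was the reverse, with 0 in each control library and 1, 1 and 2 in the knockout-labelled ones. Neither gene reached the minimum for testing. Pcdhb5, Pcdhb15 and Pcdhb17 had 0 fragments in all 6 libraries, and 16 of the 22 genes held at most 5 fragments in all libraries together.

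**Figure D1:**
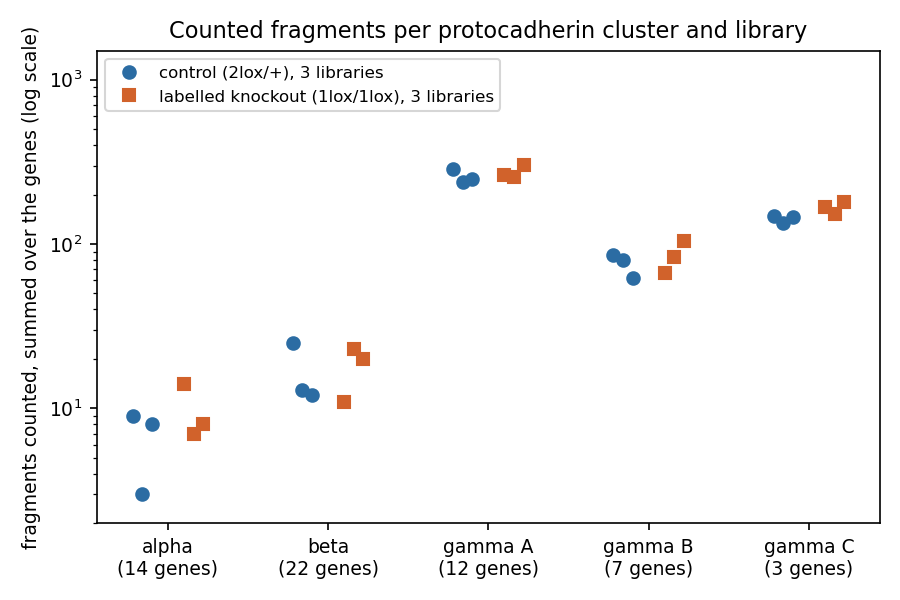
Fragments counted per library (points), summed over the genes of the alpha and beta clusters and of the A, B and C types of the gamma cluster, on a log axis, with control libraries as circles and libraries labelled knockout as squares. The alpha sums lie between 3 and 14 and the beta sums between 11 and 25, whereas the 12 gamma A genes reach 240 to 304.

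The gamma cluster carried nearly all of the signal. It held 3008 of the 3161 fragments of the clustered protocadherins, or 95.2%, and each of its 22 genes had fragments. The gamma sums were 522, 455 and 456 fragments in the control libraries, against 498, 490 and 587 in the knockout-labelled ones. Per kb of countable exon the cluster stood at 0.258 cpm ± 0.017 in the control group and 0.298 cpm ± 0.0129 in the group labelled knockout (SD, n = 3 each), far above both other clusters.

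A single gene stood out within it. Pcdhgc3, a C-type gene transcribed in many tissues outside the nervous system, had 125, 113 and 131 fragments in the control libraries, against 149, 140 and 165 in the knockout-labelled ones. On the scale of cpm per kb of countable exon, its level was 1.31 ± 0.0975 in the control group and 1.7 ± 0.0255 in the group labelled knockout. Pcdhgc3 took 25.8% ± 2.54 of all gamma fragments in the control libraries, against 28.9% ± 0.941 in the knockout-labelled ones (SD, n = 3 each), and these shares overlapped. The remaining C-type genes were low. Pcdhgc4 had 6, 4 and 4 fragments against 5, 3 and 5, and Pcdhgc5 had 18, 18 and 11 against 13, 10 and 9.

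Among the A-type genes, Pcdhga1 and Pcdhga11 were the highest. Pcdhga1, the first gene of the cluster, had 72, 61 and 70 fragments in the control libraries, against 61, 52 and 56 in the knockout-labelled ones. Pcdhga11, near the end of the A and B genes, had 47, 41 and 51 against 52, 35 and 44. Over all 6 libraries their levels ran from 0.611 to 0.788 and from 0.539 to 0.755 cpm per kb, so these 2 genes did not differ in level beyond the spread between libraries. Every library placed both below Pcdhgc3, whose lowest value was 1.22, and above Pcdhga2, whose highest value was 0.394. Pcdhga2 and Pcdhga10 were next in order, and their ranges overlapped. Pcdhga6 was the lowest A-type gene, with 2, 2 and 1 fragments against 2, 3 and 0.

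The 7 B-type genes, which alternate with the A-type genes along the chromosome, were lower as a set. They held 86, 80 and 62 fragments in the control libraries, against 67, 83 and 104 in the knockout-labelled ones. Per kb of countable exon the B-type genes stood at 0.129 cpm ± 0.02 in the control group, where the 12 A-type genes stood at 0.274 cpm ± 0.0227 (SD, n = 3 each). The A-type value includes Pcdhga1 and Pcdhga11, and single genes of the types overlapped. Over all 6 libraries Pcdhga6 and Pcdhga8 had means of 0.0241 and 0.0715 cpm per kb. Pcdhgb1, the lowest B-type gene, had 0.0756. Pcdhgb1 and Pcdhgb2 had the largest shares of repeated windows in the gamma cluster, 13.2% and 12.4%, and the part of this in the level of the B-type genes was not tested.

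**Figure D2:**
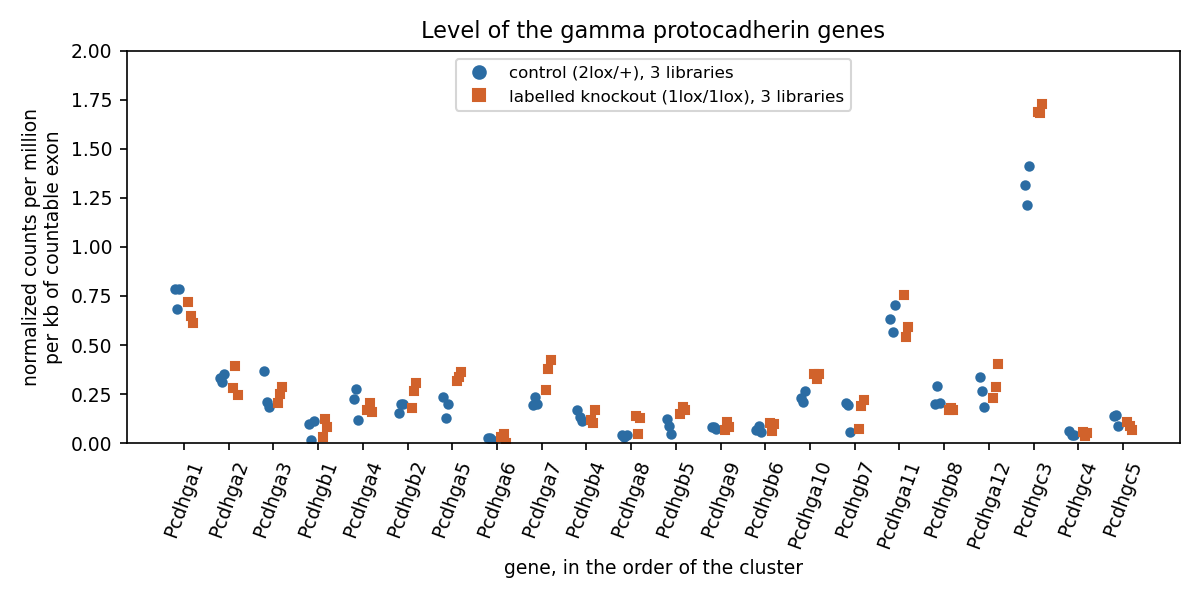
Level of each of the 22 gamma genes in the order in which they lie in the cluster, as TMM-normalized cpm per kb of countable exon, with each library as a point (circles, control; squares, labelled knockout). Pcdhgc3 lies above 1.2 in every library, Pcdhga1 and Pcdhga11 between 0.539 and 0.788, and the other genes below 0.45.

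Even the best expressed gamma gene was modest on the scale of the whole table. The median gene tested had 3.42 cpm per kb, and Pcdhgc3 exceeded 36.6% of the 16677 genes tested that had a countable length. Pcdhga1 exceeded 26.2% of them and Pcdhgc5 only 5.63%.

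Genes with at least 10 fragments in at least 1 library were compared between the groups, which left 16823 genes. No alpha or beta gene reached this minimum. Of the 22 gamma genes, 16 did, 15 of them in both groups and Pcdhga4 in the control group alone. Pcdhgb1, Pcdhga6, Pcdhga8, Pcdhga9, Pcdhgb6 and Pcdhgc4 did not. In these libraries a difference at an adjusted p of at most 0.05 was common, with 69.5% of all genes tested called. In the libraries labelled knockout 34.4% were higher and 35.2% were lower. Among the 5377 genes whose mean counts lay in the range of the gamma genes tested (8.17 to 137 fragments), 57.4% were called.

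Of the 16 gamma genes tested, 4 rose in the libraries labelled knockout, Pcdhgc3, Pcdhga5, Pcdhga7 and Pcdhgb5, and 0 fell. At an unadjusted p under 0.05 there were 5 higher and 0 lower, and DESeq2 called 3 higher and 0 lower. The share of gamma genes called, 25%, was thus under the background. Pcdhgc3 alone, with a mean of 137 fragments, set the upper end of the range of like counts, and the next gene, Pcdhga1, had 62. The part of low counts in the lower share was not tested. The fitted log2 fold changes were positive in 8 genes and negative in 8, with a median of 0.03, where all genes tested had a median of 0.00.

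The rise of Pcdhgc3 was the best measured of these. Its level went from 4.44 cpm ± 0.329 to 5.74 cpm ± 0.0862 (SD, n = 3 each), and every library labelled knockout lay above every control library. The log2 fold change was 0.37 (SE 0.10, 95% interval 0.17 to 0.58, adjusted p = 0.00133 in edgeR), or 1.29-fold. It kept this call with each library left out in turn, with adjusted p between 0.00139 and 0.0118.

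Pcdhga7 had 17, 20 and 17 fragments in the control libraries, against 22, 29 and 37 in the knockout-labelled ones, and the groups did not overlap. Its log2 fold change was 0.77 (SE 0.25, 95% interval 0.26 to 1.28, adjusted p = 0.00615 in edgeR). The call depended on library 3 of the group labelled knockout, without which the log2 fold change was 0.63 and the adjusted p 0.0532.

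Pcdhga5 and Pcdhgb5 had means under 20 fragments and are given because only 4 genes were called. Pcdhga5 had 17, 9 and 14 fragments in the control libraries, against 21, 21 and 26 in the knockout-labelled ones, with a log2 fold change of 0.83 (SE 0.29, adjusted p = 0.0104 in edgeR). Without control library 2 this was 0.62 with an adjusted p of 0.0752, and with DESeq2 the adjusted p was 0.0606. Pcdhgb5 had 16, 11 and 6 fragments against 18, 21 and 22, with a log2 fold change of 0.95 (SE 0.32, adjusted p = 0.00834 in edgeR). Without control library 3 this was 0.66 with an adjusted p of 0.0809. In both genes the groups did not overlap.

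Pcdhga10 missed the threshold, although its groups did not overlap either. It had 17, 15 and 19 fragments in the control libraries, against 24, 21 and 26 in the knockout-labelled ones, with a log2 fold change of 0.55 (SE 0.26, adjusted p = 0.0625 in edgeR). Pcdhgb8, annotated as a polymorphic pseudogene, was the only gene tested whose libraries labelled knockout all lay below the control libraries, with 14, 20 and 14 fragments against 11, 11 and 12 and an adjusted p of 0.261 in edgeR. Together, 6 of the 16 genes had groups that did not overlap, where 71.5% of all genes tested did. Pcdhga8, which was not tested, had 3, 2 and 3 fragments in the control libraries, against 9, 3 and 9 in the knockout-labelled ones.

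For the genes that were not called, the intervals show what the counts allow. Pcdhga1 had a log2 fold change of -0.19 (adjusted p = 0.255 in edgeR, 95% interval -0.49 to 0.11) and Pcdhga11 one of -0.01 (-0.37 to 0.35), so a 2-fold difference lay outside both intervals. Pcdhga2 had -0.12 (-0.64 to 0.40). The interval of Pcdhgc5, with -0.48 (-1.17 to 0.22), included a 2-fold fall. In 8 of the 16 genes the 95% interval lay within a 2-fold difference in either direction, and the fitted value was under 2-fold in all 16. The median size of the log2 fold change was 0.30, against 0.33 over all genes tested and 0.61 over the genes with counts in the same range. Averaged over the 16 genes and both groups, the squared deviation of a library from its group was 1.01 times that given by counting alone. The highest single value was 3.29, for Pcdhga12 in the libraries labelled knockout. At such low counts, counting error can hide differences between lines, so this mean does not show how alike they are.

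**Figure D3:**
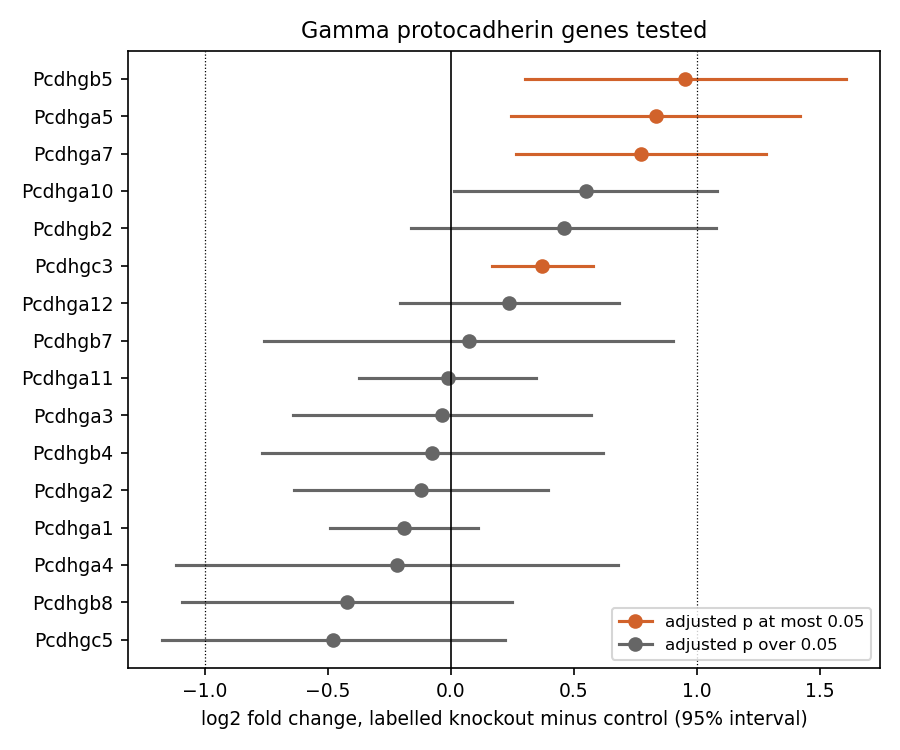
Log2 fold change of the 16 gamma genes tested, labelled knockout minus control, with its 95% interval (bars) from the quasi-likelihood test of edgeR and dotted lines at a 2-fold difference. Pcdhgb5, Pcdhga5, Pcdhga7 and Pcdhgc3 have an adjusted p of at most 0.05, all to the right of 0, and Pcdhgc3 has the narrowest interval, 0.17 to 0.58.

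Summed over the cluster, the gamma genes stood at 18.5, 16.6 and 16.6 cpm in the control libraries and at 19.1, 19.9 and 20.8 cpm in the knockout-labelled ones. The groups did not overlap, and the means of 17.2 ± 1.14 and 19.9 ± 0.861 (SD, n = 3 each) differed 1.16-fold. Without Pcdhgc3 the sums were 12.8 cpm ± 1.17 and 14.2 cpm ± 0.792, and the libraries overlapped. The sums of the A-type genes, 9.32 cpm ± 0.774 and 10.4 cpm ± 0.337, and of the B-type genes, 2.74 cpm ± 0.425 and 3.21 cpm ± 0.577, overlapped as well. In such bulk libraries, fewer cells expressing a gene and less RNA of it per cell cannot be told apart.

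Protocadherins encoded outside the clusters, which also mediate adhesion but do not share constant exons, included genes that fell by far more than 2-fold. Of 12 such genes, 6 were tested, 5 fell, 0 rose and 1 was not called, with a median log2 fold change of -2.20. Over all genes tested, 69.5% were called, 34.4% higher and 35.2% lower. Pcdh8 and Pcdh12 reached the minimum for testing through the control libraries alone, where they were high, so the count and the median are a description. With a filter of 1 cpm in 3 libraries 2 fell. Pcdh17 went from 102, 114 and 109 fragments in the control libraries to 12, 12 and 19 in the knockout-labelled ones, a log2 fold change of -2.83 (SE 0.19, adjusted p = 1.08e-18 in edgeR). Pcdh1, which lies beyond the gamma cluster on the minus strand of the same chromosome (38185914 to 38212053), went from 1003, 949 and 982 fragments to 323, 331 and 370, a log2 fold change of -1.45 (SE 0.05, adjusted p = 8.28e-29 in edgeR). Pcdh8 and Pcdh18, also called lower, had log2 fold changes of -2.68 and -1.72. Pcdh12, also on chromosome 18, had 14, 12 and 9 fragments in the control libraries, against 0, 0 and 2 in the knockout-labelled ones. Pcdh19 was not called, with 38, 32 and 46 fragments against 26, 35 and 36. Whether these genes and the gamma genes differ as sets was not tested.

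Of the listed neighbours directly beside the clusters or between them, only Zmat2, Taf7 and Diaph1 were tested, and none was called higher. The next genes outward from Zmat2 and Diaph1, Hars2 and Hdac3, were called higher, with log2 fold changes of 0.21 and 0.18. Off the list, the pseudogene Gm6756, between Zmat2 and the alpha cluster, was called higher. It had 0 fragments in each control library, against 21, 15 and 22 in the knockout-labelled ones. Gm6756 thus reached the minimum for testing through the libraries labelled knockout alone, so its call is a description. The noncoding gene 4930517L18Rik, between the beta and gamma clusters and also off the list, was called lower. It reached the minimum for testing through the control libraries alone, where it was high, so this call is a description too. Of 29 listed neighbours, 27 were matched, 24 were tested, 16 rose, 2 fell and 6 were not called, where 69.5% of all genes tested were called, 34.4% higher. Their median log2 fold change was 0.19. Zmat2, the coding neighbour before the alpha cluster, was not called, with a log2 fold change of -0.01 (SE 0.03). Taf7, which encodes a subunit of the general transcription factor TFIID and lies between the beta and gamma clusters on the minus strand, was not called either, with 4077, 3619 and 3624 fragments against 3396, 3264 and 3828 and a log2 fold change of -0.04 (SE 0.03). Diaph1, which encodes an actin nucleating formin, spans positions 37843601 to 37935476 and is read from the other strand. Diaph1 therefore ends, rather than starts, just past the gamma cluster. It went from 8095, 7627 and 7595 fragments to 4794, 4693 and 5026, a log2 fold change of -0.61 (SE 0.03, adjusted p = 1.46e-25 in edgeR). Farther away, Slc4a9, Spry4 and Tmco6 rose by 1.23, 0.68 and 0.59 on the log2 scale.

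Of 30 genes known to act on the architecture, methylation or silencing of the clusters, all were tested, 14 rose, 11 fell and 5 were not called, beside 69.5% of all genes tested that were called in about equal parts in both directions. Their median log2 fold change was 0.05. Dnmt3b, the methyltransferase that places methylation on clustered protocadherin promoters in the early embryo, went from 12507, 11504 and 11797 fragments in the control libraries to 2590, 2575 and 2923 in the knockout-labelled ones. This log2 fold change of -2.07 (SE 0.03, adjusted p = 7.41e-47 in edgeR) was the largest of the list. Dnmt3l, a cofactor of the methyltransferases, fell by 0.94 and Ehmt1, which methylates histone H3 at lysine 9, fell by 0.53 on the log2 scale. Tet2, which oxidises methylcytosine, went from 3353, 3135 and 3017 fragments to 6949, 6749 and 7454, a log2 fold change of 1.23 (SE 0.03, adjusted p = 3.44e-37 in edgeR).

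Among the architectural proteins, Ctcf was not called, with a log2 fold change of 0.02 (SE 0.02), which was -0.03 when scaled by library totals alone. Of the cohesin genes, Rad21, Stag1, Smc1a and Smc3 rose, with log2 fold changes of 0.47, 0.41, 0.34 and 0.11, and Stag2 fell, with one of -0.45. Smchd1, which represses clustered protocadherins in several tissues, had a log2 fold change of 0.12 (SE 0.03, adjusted p = 2.84e-04 in edgeR), and Setdb1, a histone H3 lysine 9 methyltransferase, one of -0.14 (SE 0.03, adjusted p = 8.02e-06 in edgeR). Of 20 genes for partners of protocadherin proteins, 19 were tested, 3 rose, 11 fell and 5 were not called, beside the same 69.5% of all genes tested (35.2% lower). Their median log2 fold change was -0.12. The genes of the WAVE complex, which protocadherins recruit to actin, moved both ways. Brk1 and Abi2 rose, with log2 fold changes of 0.54 and 0.50, whereas Wasf2, Wasf1, Cyfip1 and Abi1 fell, with -0.30, -0.27, -0.22 and -0.11, and Nckap1 was not called, with 0.02. The receptor tyrosine kinase gene Ret and the kinase gene Ptk2b, a known partner of the constant domains, fell, with log2 fold changes of -0.51 and -0.45.

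**Figure D4:**
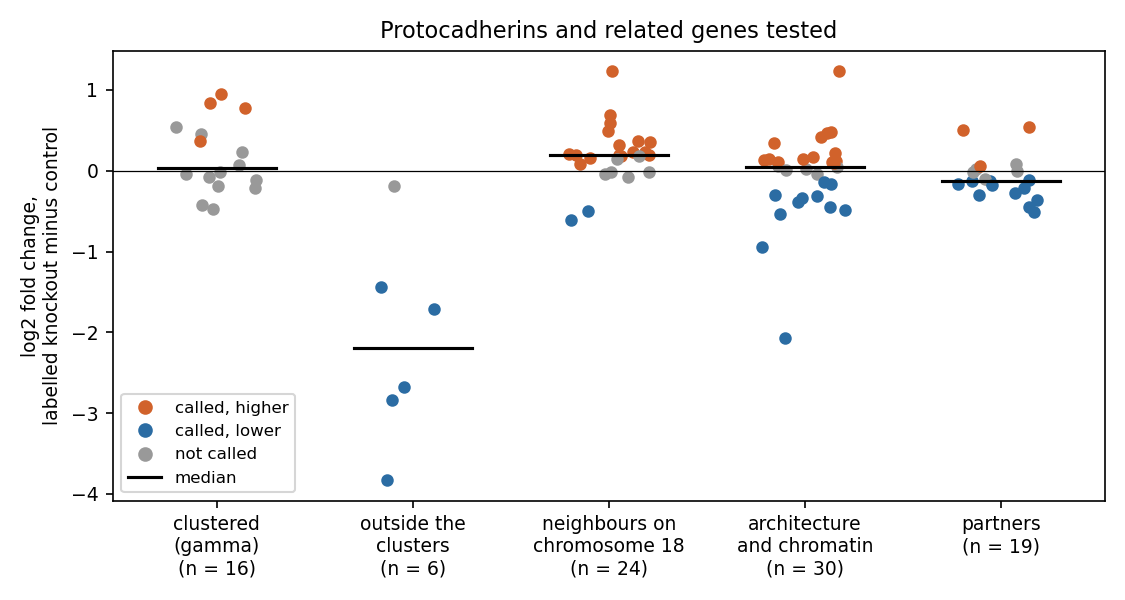
Log2 fold change (labelled knockout minus control) of the gamma genes tested and of the listed protocadherins outside the clusters, neighbours, regulators and partners, each gene as a point coloured by its call and each median as a black bar. The medians are 0.03 for the gamma genes and -2.20 for the 6 protocadherins outside the clusters, and the other 3 medians lie between -0.12 and 0.19.

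Markers of the labelled cell type were abundant in every library. All 8 stem cell markers were tested, 7 rose and 1 fell. The background for this and each other marker list was 69.5% of all genes tested called, 34.4% higher and 35.2% lower. Klf4, Tfcp2l1, Esrrb and Nanog had log2 fold changes of 1.90, 1.56, 1.16 and 1.13, and Pou5f1 had 31625, 32202 and 31372 fragments in the control libraries, against 34095, 32177 and 37653 in the knockout-labelled ones. Neural markers are given because neurons express clustered protocadherins. Of 12, 9 were tested, 5 rose, 2 fell and 2 were not called, and their summed level was 511 to 519 cpm in the control libraries, against 570 to 582 cpm in the knockout-labelled ones. Most of that sum was Tubb3 and Stmn2. Nes stood at 95 cpm, Pax6 at 11.5 cpm, Map2 at 9.93 cpm and Rbfox3 at 1.31 cpm in the control group, so neural markers were detected there. Neurog2 had at most 2 fragments in any library and Dcx at most 3. Sox1, Snap25 and Syt1 rose by 1.23, 1.14 and 0.94 on the log2 scale, whereas Nes and Pax6 fell, with log2 fold changes of -2.33 and -0.44.

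Of 8 endoderm markers, 6 were tested, 1 rose and 3 fell, beside the same 69.5% of all genes tested that were called. Their summed levels were 10.8 to 11.9 cpm in the control group and 9.76 to 11.8 cpm in the other. Foxa2, Sox17 and Gata4 fell, with log2 fold changes of -1.99, -1.49 and -0.97, and Sox7 rose, with one of 1.24. Foxa2, with 11, 3 and 8 fragments against 3, 2 and 0, and Sox17, with 16, 18 and 14 against 4, 9 and 3, reached the minimum through the control libraries alone, and with a filter of 1 cpm in 3 libraries 1 endoderm marker fell. Foxa2 was not called without library 3 of the group labelled knockout (adjusted p = 0.0932 in edgeR), and without control library 1 it was under the minimum for testing. Of 11 mesoderm and fibroblast markers, 10 were tested, 2 rose and 5 fell, and their sum went from between 71.3 and 73.6 cpm to between 23.5 and 25.5 cpm. Most of the control sum was Col1a1, with a mean of 41 cpm in the control group and 3.93 cpm in the group labelled knockout. Col1a1 fell by 3.39, Col1a2 by 3.15 and Col3a1 by 2.24, while Mixl1 rose by 1.18 on the log2 scale. Col3a1 also reached the minimum in the control group alone. The part of these marker differences in the levels of Pcdhgc3 and of the protocadherins outside the clusters was not tested.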

How the data were processed

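Raw fragment counts per gene were deposited by the authors, who removed rRNA reads with Bowtie2 2.1.0, mapped to mm10 with TopHat2 2.0.10 and counted GENCODE M4 genes on the sense strand with HTSeq 0.6.1 in union mode, discarding fragments on several genes or locations. Symbols, coordinates and exons came from GENCODE M21 on the same build, which matched 42425 of 43309 identifiers. Any gene that reached 10 counts in 1 library or more was tested in edgeR 4.0.16 (R 4.3.3) with TMM, glmQLFit and glmQLFTest, without covariates, at a Benjamini-Hochberg adjusted p of at most 0.05 over all genes. The SE was the log2 fold change divided by the square root of F. The code was tested on simulated data. Each library counted once, since the study calls the lines independently derived. Library pairs of a group differed by 1.14 to 2.24 times sampling noise, which cannot show whether the lines are independent.

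Named were the C-type genes, the 5 highest genes of each cluster per kb of countable exon, up to 4 rises and falls per cluster (called, mean of at least 20 counts, no overlap), up to 4 called genes per other list with the largest log2 fold change in either direction, and Zbtb24, Ctcf, Rad21, Smchd1, Dnmt3b and Setdb1. Others, such as Stag1 and the WAVE genes, were named after their values were seen. Members and lists were chosen with earlier results of these data known. Alternatives were DESeq2 1.42.0, the exact test and the likelihood ratio test of edgeR, other scalings and filters, a minimum log2 fold change of 1, a block on replicate number, and leaving out each library. The background among genes of like counts was added after the data were seen. No sequences are printed here. One listed marker is not reported here.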

Additional observations from a re-analysis of the deposited data

How the results depend on the processing

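With 4 gamma genes called higher and 0 lower, the exact test and the likelihood ratio test of edgeR and the other scalings gave the same counts. A filter of at least 1 cpm in 3 libraries left 1 gene called higher, since fewer members were tested, and a minimum log2 fold change of 1 left 0, with 2864 genes called in all against 11698. Without a filter 5 were called higher (Pcdhga8 was added) and 1 lower, Pcdhb20. With each library left out in turn, 3 to 4 were called higher. The log2 ratio of the gamma sums was 0.21, 0.16 with library totals alone, and 0.18 to 0.26 with each library left out. That of the alpha sums ranged from 0.24 to 0.88 and that of the beta sums from -0.09 to 0.59, and neither has a test.

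Signs turned only in genes that were not called. With each library left out, the log2 fold change ranged from -0.33 to 0.023 in Pcdhga2, from -0.23 to 0.34 in Pcdhga3, from -0.50 to 0.044 in Pcdhga4, from -0.32 to 0.10 in Pcdhgb4, from -0.32 to 0.41 in Pcdhgb7, from -0.16 to 0.079 in Pcdhga11 and from -0.033 to 0.46 in Pcdhga12. The log2 fold change of Ctcf turned to -0.027 with library totals alone. Over the alternatives other than left-out libraries, the adjusted p was at most 0.0182 for Pcdhgc3, 0.0468 for Pcdhga7 and 0.0481 for Pcdhgb5, each in the test by edgeR or DESeq2.

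The replicate block (the replicate number as a term in the fit) gave 4 gamma genes higher and 0 lower, with 11802 genes called in all. Nothing in the labels pairs lines of the groups, and the deviations of same-numbered libraries correlated by 0.02, 0.05 and 0.01 across genes. Library 3 labelled knockout correlated best with control library 1. The block changed no other call among the members.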

Other observations

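Within the span of the clusters, 3 annotated read-through genes, Gm42416, Gm37013 and Gm37388, which run from alpha exons to the gamma constant exons, had 0 fragments in all 6 libraries. Their exons overlap those of cluster genes, and fragments that touched more than 1 gene had been discarded. These counts therefore cannot show whether read-through transcripts were present. The long noncoding RNA gene 3222401L13Rik, which ends just before Pcdhga1, had 53, 69 and 62 fragments in the control libraries, against 67, 63 and 83 in the knockout-labelled ones, with a log2 fold change of 0.28 (SE 0.15, adjusted p = 0.0828 in edgeR's quasi-likelihood test). A second one between the beta cluster and Taf7, 4930517L18Rik, had 9, 5 and 15 fragments and 0, 2 and 5, with a log2 fold change of -1.92 (SE 0.63, adjusted p = 0.00592 in edgeR). Only the control library with 15 fragments met the minimum for testing, so this call is a description.

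Before the alpha cluster, at positions 36920396 to 36922015 of chromosome 18 (mm10), the processed pseudogene Gm6756 had 0 fragments in each control library against 21, 15 and 22 in the knockout-labelled ones. This is at least 6.75-fold higher when each control library is set at the floor of 3 fragments (adjusted p = 3.03e-10 in edgeR). The gene reached the minimum for testing only in the group where it was high, so this call is a description. Processed pseudogenes resemble the gene they were copied from, and the counts leave out fragments that matched both. These genes were named after their values were seen.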
